A study of Mus musculus with 8 samples.

Results

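Steroid receptor genes and a pair of genes known as their targets were followed in muscle stem cells sorted by the level of a Myf5 reporter from female and male mice. The 6 genes were the oestrogen receptor Esr1, the progesterone receptor Pgr, the glucocorticoid receptor Nr3c1, the mineralocorticoid receptor Nr3c2, and the target genes Greb1 and Fkbp5, out of 27554 genes in the deposited count table. They were listed by name, and the set was chosen by the female and male levels of Greb1 in earlier results of the same libraries, so every female against male value of the 6 genes is given as a description, without a test. The difference between high and low Myf5 reporter cells within each sex was not part of that choice and was tested.

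The cells came from hindlimb muscles of C57BL/6NTac mice carrying the reporter alleles Pax7tm3955(T2A-ZsGreen)Tac and Myf5tm3956(T2A-E2Crimson)Tac, which all groups shared. The labels name no treatment, and the age of the mice was not given in the sources used here. Cells expressing Pax7, the transcription factor that marks muscle stem cells, were split by the fluorescence reporting Myf5, a myogenic transcription factor, into Myf5High and Myf5Low fractions from the ends of its range. The 4 groups were female Myf5High, female Myf5Low, male Myf5High and male Myf5Low, with 2 libraries each, and each library came from a pool of 4 mice, so the spread between libraries is that between pools. Polyadenylated RNA was sequenced, and gene counts per library ran from 3140361 to 4238427. Pax7 was at 1000.8 to 1498 CPM (gene counts scaled to a common library size) in all 8 libraries. Transcripts of other cells were present too. The stromal genes Dpt, Col1a1 and Dcn reached 604, 244 and 112 CPM and the myeloid genes Lyz2 and C1qa 39.0 and 27.1 CPM, whereas Pdgfra and Ptprc reached 4.33 and 6.14 CPM. Myf5 itself was higher in Myf5High over both sexes by the edgeR test (log2 fold change 1.19, adjusted p 0.0284), but did not pass within females (adjusted p 0.0649 by edgeR) or within males (adjusted p 0.808 by edgeR). The library labelled male Myf5High replicate 2 had 39.5 CPM of Myf5, below the 41.9 CPM of male Myf5Low replicate 1 and the 49.9 CPM of female Myf5Low replicate 2, though above the 28.7 CPM of male Myf5Low replicate 2, so its Myf5 level overlaps those of Myf5Low. Among other listed genes called between the fractions, Des had 1286 and 1208 CPM in male Myf5High replicates 1 and 2. Both lay below the 1367 CPM of female Myf5Low replicate 1 but above the 628 and 839 CPM of male Myf5Low. Others lay outside the Myf5Low range in male Myf5High replicate 2. Mylk4 was at 0.986 CPM there against 7.88 to 30.8 CPM, and Calcr at 85.2 against 44.5 to 58.3 CPM. Dpt was at 491 against 161 to 243 CPM and C1qa at 5.26 against 17.4 to 27.1 CPM. The differences over both sexes or fractions are also given without male Myf5High replicate 2 for the genes it touches. Xist, transcribed from the inactive X chromosome, averaged 1690 ± 441 CPM over the 4 female and 3.36 ± 2.94 CPM over the 4 male libraries (SD), and every library fitted its labelled sex. Libraries of the same sex and replicate number may share their mice, which the labels do not state outright, so each sex may be represented by as few as 2 pools.

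Steroid receptors are transcription factors that bind a lipid-soluble hormone inside the cell and then act on DNA, usually as pairs of receptor molecules. Esr1 binds oestradiol and is present in skeletal muscle and its stem cells, Nr3c1 binds glucocorticoids, and Nr3c2 binds aldosterone and also glucocorticoids. Greb1, named for growth regulation by oestrogen in breast cancer, is a classical target and cofactor of the oestrogen receptor, and Pgr is another classical target. Fkbp5 encodes a co-chaperone of the glucocorticoid receptor complex that is induced by glucocorticoids and lowers the receptor's affinity for its hormone.

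The promoter windows of Greb1 are shown because this gene differed most in fold between libraries among the 6 and because oestrogen receptors are known to bind a palindrome of GGTCA and TGACC set 3 bases apart, the oestrogen response element. The windows, from RefSeq on GRCm38.p6, run from 250 bases before to 50 bases after an annotated start, 5′ to 3′ on the minus strand of chromosome 12, with each GGTCA or its reverse complement TGACC in capitals.
Greb1 upstream start, chr12:16800837-16801136: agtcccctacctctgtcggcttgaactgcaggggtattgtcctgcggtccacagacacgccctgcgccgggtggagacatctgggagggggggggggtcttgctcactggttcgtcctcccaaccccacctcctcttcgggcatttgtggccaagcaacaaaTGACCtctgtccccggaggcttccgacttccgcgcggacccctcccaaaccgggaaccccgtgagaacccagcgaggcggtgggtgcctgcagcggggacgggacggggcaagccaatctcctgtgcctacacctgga
Greb1 internal start, chr12:16757190-16757489: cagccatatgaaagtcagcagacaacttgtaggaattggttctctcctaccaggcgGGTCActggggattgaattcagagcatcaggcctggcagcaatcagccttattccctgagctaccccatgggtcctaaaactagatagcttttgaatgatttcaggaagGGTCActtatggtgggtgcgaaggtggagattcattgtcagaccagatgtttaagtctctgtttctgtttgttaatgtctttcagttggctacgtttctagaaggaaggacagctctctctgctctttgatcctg
The upstream window held 1 copy of the 5 letters, beginning 88 bases before the start, and the internal window held 2, beginning 194 and 85 bases before its start. Neither held the full palindrome. Among all 32851 RefSeq windows of this length, 40.5% held at least 1 copy of GGTCA on either strand and 0.07% held the full palindrome. Having at least 1 copy, as both Greb1 windows did, is therefore common. At least 3 copies occurred in 2.35% of windows, and the share with 2, as in the internal window, was not counted. A match describes letters and was not measured as a binding site in these samples.

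Greb1 (ENSMUSG00000036523, chromosome 12, 16670615 to 16800886, minus strand, GRCm38) was read in all 4 female libraries and was at or near the detection limit in all 4 male libraries. The raw counts were 69 and 227 in female Myf5High replicates 1 and 2, 116 and 276 for female Myf5Low, 1 and 5 for male Myf5High, and 1 and 0 for male Myf5Low. In normalised CPM the female libraries had 22.3, 57.8, 31.9 and 64.9 in the same order, and the highest male library had 1.64. Every female library therefore lay far above every male library, in both fractions. Summed over libraries, females had 688 Greb1 counts and males 7, a ratio of 108 after scaling to total gene counts. Within Myf5High the ratio was 54.8, from 296 against 6 counts. Within Myf5Low it was 424, from 392 counts against 1, and so small a count leaves a counting interval of 75.7 to 16790 (exact, 95%), which covers neither the spread between libraries nor the choice of this gene by these values. Of the male counts, 5 of 7 came from male Myf5High replicate 2, and the ratio without that library was 295. That library stood at 3.72% of the female mean for Greb1 and at 0.447% of it for Xist. In bulk RNA such as this, fewer cells with a transcript and less transcript per cell cannot be told apart. Part of the Greb1 exons overlaps Gm48140 on the opposite strand, and the strand setting of the counting was not given in the sources used here.

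**Figure D1:**
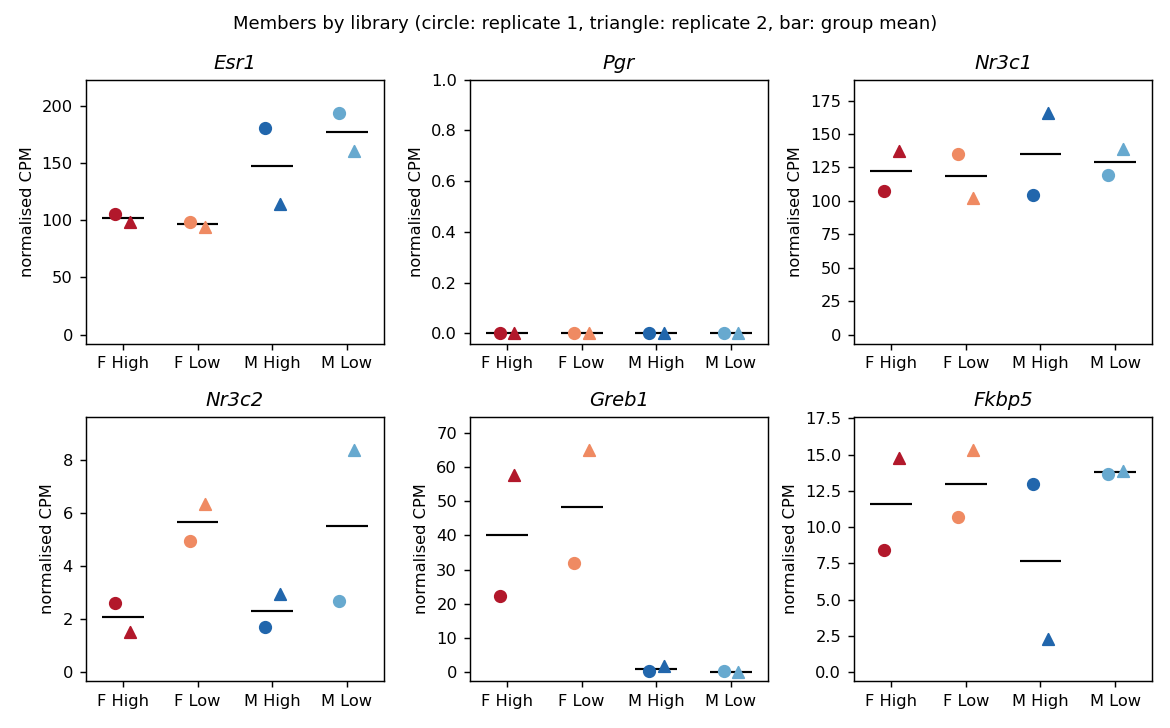
Normalised CPM of each of the 6 genes (vertical axes, each starting at 0) in female (F) and male (M) Myf5High and Myf5Low libraries. Circles are replicate 1, triangles replicate 2 and bars group means of 2 libraries. Greb1 lies between 22.3 and 64.9 CPM in females and at or below 1.64 CPM in males, Esr1 lies lower in all female than in all male libraries, and Pgr is at 0 throughout.

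Between the fractions of females Greb1 showed no detectable difference. It had 40.1 ± 25.1 CPM in the 2 Myf5High and 48.4 ± 23.4 CPM in the 2 Myf5Low libraries (SD), and the libraries overlapped. The log2 fold change of Myf5High against Myf5Low was -0.27 (SE 0.523, 95% interval -1.37 to 0.83; edgeR quasi-likelihood adjusted p 0.965). Leaving out a library turned its sign in 2 cases, to 0.24 without female Myf5High replicate 1 and to 0.32 without female Myf5Low replicate 2. The spread in females lay between the replicate numbers. Replicate 2 was 2.59-fold above replicate 1 in Myf5High and 2.04-fold above it in Myf5Low, whereas Esr1 in the same libraries had ratios of 0.933 and 0.957. A level at least 2-fold higher in replicate 2 than in replicate 1 of both female fractions occurred in 209 of 11730 genes tested, or 1.78%, a comparison added after the Greb1 values were seen. No fitted difference between the fractions is given for Greb1 in males, since the counts there were at most 5.

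Esr1 (ENSMUSG00000019768, chromosome 10, 4611593 to 5005614, plus strand) was lower in every female than in every male library, the opposite order to Greb1. Its levels were 105 and 98.0 CPM in female Myf5High replicates 1 and 2, 98.3 and 94.1 CPM for female Myf5Low, 181 and 114 CPM for male Myf5High, and 194 and 161 CPM for male Myf5Low. The female libraries lay close together, at 98.9 ± 4.58 CPM, while the male ones were spread more widely, at 162 ± 35.0 CPM (SD, n = 4 each). The log2 fold change of females against males was -0.71 (SE 0.195), and it lay between -0.86 and -0.52 when each library was left out in turn. With the counts of both fractions summed for each sex and replicate number it was -0.73 (SE 0.194). Ordered by mean, male Myf5Low stood above male Myf5High, which stood above female Myf5High and then female Myf5Low, and within each sex the libraries of neighbouring groups overlapped.

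Of the 5 genes tested among the 6, 1 (Greb1) had all female libraries above all male ones and 1 (Esr1) had them all below. Over all genes tested these arrangements occurred in 3.59% and 3.5%, respectively, and in either direction in 7.08%. By the edgeR test 1.65% of all genes were called, 0.733% higher and 0.921% lower in females. Since the sex difference entered the choice of these genes, nothing is read from the counts. Markers of other cells also differed between the sexes. The 8 endothelial markers summed to 253 to 440 CPM in females and 461 to 785 CPM in males, 7 of 8 had a negative log2 fold change, and Egfl7 passed the test (edgeR log2 fold change -1.06, adjusted p 0.00493). Egfl7 was the largest part of every sum, at 79.9 to 170 CPM in females and 201 to 353 CPM in males. Cdh5 and Kdr were also lower in all female than in all male libraries, while the libraries of the other endothelial markers overlapped. None of these 8 was at 0 in a library. The 8 stromal markers summed to 366 to 553 CPM in females and 423 to 1028 CPM in males, with Pdgfra at 0 in female Myf5Low replicate 2. The part of these cells in the Esr1 difference was not tested.

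Between the fractions Esr1 differed by less than the spread of its libraries. Over both sexes it had 124 ± 38.1 CPM in the 4 Myf5High and 137 ± 48.6 CPM in the 4 Myf5Low libraries (SD), with Myf5High above Myf5Low in 2 of the 4 pairs of libraries that share a sex and a replicate number. The log2 fold change was -0.09 (standard error 0.195, 95% interval -0.50 to 0.32; adjusted edgeR p 0.958), and 0.052 without male Myf5High replicate 2. In females it was 0.08 (standard error 0.277; adjusted edgeR p 0.983) and in males -0.26 (standard error 0.274; adjusted edgeR p 0.987).

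Pgr (ENSMUSG00000031870, chromosome 9, 8899833 to 8968611, plus strand), a gene that oestradiol induces in uterus and breast, had 0 counts in all 8 libraries and was the 1 gene of the 6 that could not be tested. A count of 0 in 30678231 gene counts allows a level of up to 0.0978 CPM over all libraries, taking 3 counts as the limit, and of up to 0.708 to 0.955 CPM in a single library. In female Myf5Low replicate 2, where Greb1 had its highest count of 276, Pgr was likewise not read. Esr2, the second oestrogen receptor, also had 0 counts in every library.

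Nr3c1 (ENSMUSG00000024431, chromosome 18, 39410545 to 39519421, minus strand) was even across the groups. It had 107 and 137 CPM in female Myf5High replicates 1 and 2, 135 and 102 CPM for female Myf5Low, 104 and 166 CPM for male Myf5High, and 119 and 139 CPM for male Myf5Low. All neighbouring groups overlapped, and the widest gap lay between the replicates of male Myf5High. The log2 fold change of Myf5High against Myf5Low was 0.06 (standard error 0.203, 95% interval -0.37 to 0.48; adjusted edgeR p 0.979), with Myf5High higher in 2 of 4 such pairs. Its sign turned when any of 3 libraries was left out, to -0.04 without female Myf5High replicate 2, -0.04 without female Myf5Low replicate 2 and -0.13 without male Myf5High replicate 2. Females against males gave -0.13 (SE 0.203) as a description, and 0.055 without male Myf5High replicate 2.

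**Figure D2:**
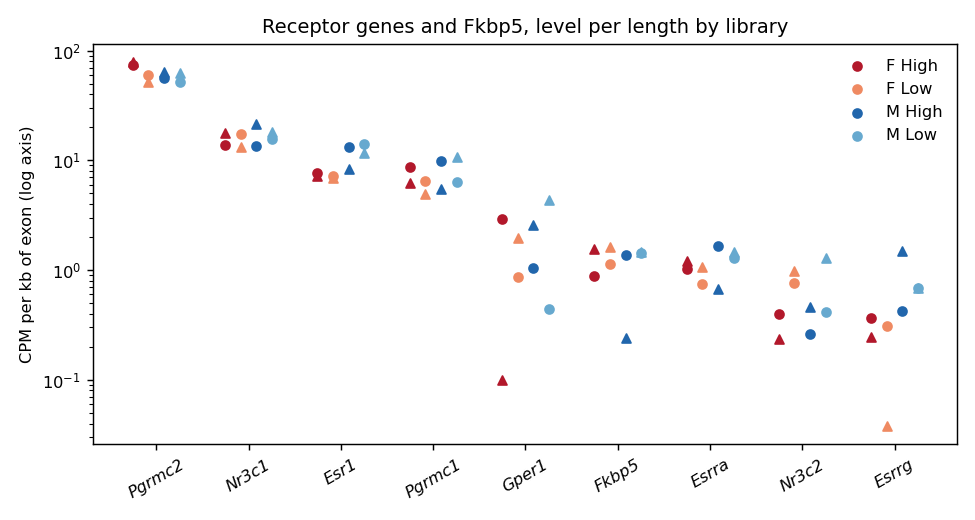
Level per exon length (CPM per kb, log axis) of Fkbp5 and of receptor genes reported here that were read in all 8 libraries, by group (colour; F female, M male) and replicate (circle 1, triangle 2). Pgrmc2 stands highest, Nr3c1, Esr1 and Pgrmc1 follow, and Nr3c2 has a mean of 0.6 against 16.4 CPM per kb for Nr3c1.

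Levels of different genes were compared as CPM per kilobase of annotated exon. On this scale Nr3c1 was the most abundant of the 4 receptors among the 6 genes, with 16.4 ± 2.86 CPM per kb, followed by Esr1 with 9.56 ± 3.001 (SD, n = 8 libraries). Within a library Nr3c1 lay 1.03-fold to 2.59-fold above Esr1, in all 8. The ratio was 1.81 to 2.49 in the female libraries and 1.03 to 2.59 in the male ones. Nr3c2 had 0.6 ± 0.377 CPM per kb and Fkbp5 1.21 ± 0.459 CPM per kb, and the libraries of these 2 genes overlapped. Greb1 reached 4.18 CPM per kb in the mean of female Myf5High and 5.05 CPM per kb in that of female Myf5Low, below Esr1 at 7.43 and 7.04 CPM per kb in the same groups. Pgrmc2, which encodes a haem-binding membrane protein named for progesterone binding, stood above all of these at 62.3 ± 9.82 CPM per kb.

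Nr3c2 (ENSMUSG00000031618, chromosome 8, 76899442 to 77245012, plus strand) was read at a low level, with a difference between the fractions that did not pass the test. Its raw counts were 8 and 6 in female Myf5High replicates 1 and 2, 18 and 27 for female Myf5Low, 7 and 9 for male Myf5High, and 12 and 35 for male Myf5Low. In normalised CPM these were 2.59, 1.53, 4.94, 6.35, 1.68, 2.96, 2.69 and 8.36. Myf5High was below Myf5Low in 4 of 4 such pairs, which share a number and are not known to share mice, but the libraries overlapped over both sexes, since male Myf5Low replicate 1 lay under male Myf5High replicate 2. The means were 2.19 ± 0.694 CPM in the 4 Myf5High and 5.59 ± 2.39 CPM in the 4 Myf5Low libraries (SD), and the log2 fold change was -1.35 (standard error 0.768, 95% interval -2.97 to 0.26; adjusted edgeR p 0.66). It lay between -1.65 and -0.84 when each library was left out in turn, and was -1.58 without male Myf5High replicate 2. Some exon bases of Nr3c2 overlap Gm10649 on the opposite strand, which adds to the uncertainty of so few counts.

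Markers of other cells also differed between the fractions. The 8 immune markers summed to 16.1 to 41.4 CPM in Myf5High and 49.96 to 87.7 CPM in Myf5Low, without overlap, 7 of 7 tested had a negative log2 fold change, and C1qa passed the test (edgeR log2 fold change -2.13, adjusted p 0.00771). Ptprc, C1qb, Adgre1 and Tyrobp were each at 0 in at least 1 library. The 7 mural markers summed to 341 to 491 CPM in Myf5High and 364 to 752 CPM in Myf5Low, and 5 of 7 had a negative log2 fold change, of which Acta2 alone passed the test (edgeR log2 fold change -1.73, adjusted p 0.000389). The 6 glial markers summed to 64.2 to 110 CPM in Myf5High and 80.2 to 172 CPM in Myf5Low, with Sox10 and S100b at 0 in at least 1 library. The 8 endothelial markers summed to 253 to 555 CPM in Myf5High and 379 to 785 CPM in Myf5Low, with 7 of 8 below 0, a median log2 fold change of -0.37 and 0 called by edgeR. Male Myf5Low replicate 2, where Nr3c2 was highest, had the highest glial and endothelial sums. The highest immune and mural sums were those of female Myf5Low replicate 2. The stromal sums were 491 to 1028 CPM in Myf5High and 366 to 519 CPM in Myf5Low, with Dpt as the largest part in every library. Dpt had 329 to 604 CPM in Myf5High and 161 to 243 CPM in Myf5Low. It alone was called, higher in Myf5High (edgeR log2 fold change 1.05, adjusted p 0.00327). Of the 7 stromal markers tested, 5 were above 0 and 2 below over both sexes. Within females 3 were above and 4 below, with a median log2 fold change of -0.21, so the list had no shared direction. Of the 10 immediate early genes induced by dissociation, 10 had a log2 fold change above 0 and 0 were called by edgeR, which called 1.2% of all genes between the fractions. The part of these cells and genes in the Nr3c2 values was not tested.

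Fkbp5 (ENSMUSG00000024222, chromosome 17, 28399094 to 28517527, minus strand) was lowest in male Myf5High replicate 2, and the other 3 male libraries lay closer together than the female ones. It had 8.41 and 14.8 CPM in female Myf5High replicates 1 and 2, 10.7 and 15.3 CPM for female Myf5Low, 13.0 and 2.30 CPM for male Myf5High, and 13.7 and 13.9 CPM for male Myf5Low. The low library held 7 raw counts, against 26 to 65 in the others. Myf5High was below Myf5Low in 4 of 4 pairs of the same sex and number, and the log2 fold change was -0.49 (standard error 0.461, 95% interval -1.46 to 0.48; adjusted edgeR p 0.867). Without male Myf5High replicate 2 it was -0.12, and without male Myf5High replicate 1 it was -1.36, so its size rested on these libraries. In females it was -0.16 (standard error 0.649; adjusted edgeR p 0.988) and in males -0.82 (standard error 0.657; adjusted edgeR p 0.953). Females against males gave 0.25 (SE 0.461) as a description, and -0.12 without male Myf5High replicate 2.

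Tsc22d3, which encodes the glucocorticoid-induced leucine zipper protein, had its lowest levels in the same libraries as Fkbp5. It had 31.0 CPM in female Myf5High replicate 1 and 32.9 CPM in male Myf5High replicate 2, against 57.1 to 92.7 CPM in the other 6 libraries, and it was singled out after its values were seen. Other genes of the glucocorticoid list had their highest level in these libraries, among them Per1 (194.7 CPM), Dusp1 (785 CPM) and Cebpd (590 CPM) in female Myf5High replicate 1 and Zbtb16 (47.3 CPM) in male Myf5High replicate 2. These were also the libraries with the highest summed level of the 10 immediate early genes known to be induced by tissue dissociation, at 32439 CPM in female Myf5High replicate 1 and 36047 CPM in male Myf5High replicate 2, against 16859 to 27076 CPM in the others. Male Myf5High replicate 2 further had the largest share of counts on Gm42418, a transcript at a ribosomal RNA locus, at 28.8% against 20.1% to 26.2% elsewhere. The part of dissociation or library quality in the Fkbp5 values was not tested.

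**Figure D3:**
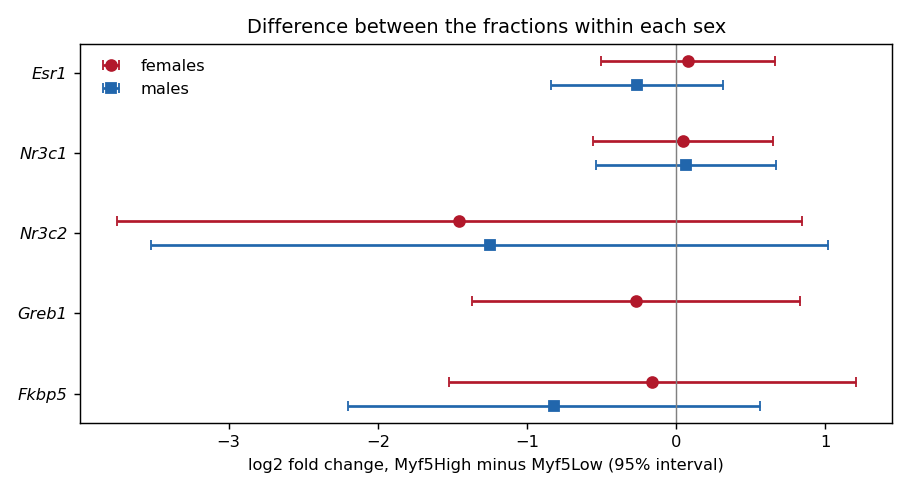
Log2 fold change of Myf5High against Myf5Low (horizontal axis) with 95% intervals for the 5 genes tested, in females (red circles) and males (blue squares), from the fit of 4 group means to 8 libraries. Every interval includes 0, the Nr3c2 intervals are the widest, and Greb1 is shown in females alone because males had at most 5 counts.

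Over both sexes, 0 of the 4 genes read in both were called between Myf5High and Myf5Low by the edgeR test, where 1.2% of all 11730 genes were called. Within females it called 0 of the 5 genes tested, Greb1 included, against 0.332% of all genes, and within males 0 of the 4, against 0.171%. The libraries of Myf5High and Myf5Low overlapped for each of the 4, while they did not overlap for 4.58% of all genes. For these 4 genes the smallest unadjusted p of the edgeR test was 0.0952, for Nr3c2. The difference between the fractions was also compared between the sexes. This interaction, the log2 fold change in females less that in males, was 0.34 (SE 0.389) for Esr1, -0.02 (SE 0.407) for Nr3c1, -0.20 (SE 1.52) for Nr3c2 and 0.66 (SE 0.922) for Fkbp5, with an edgeR adjusted p of 1.0 for each. The edgeR test called 0 of all genes for the interaction, with 533 at an unadjusted p under 0.05, and DESeq2 called 2.

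The genes whose levels over the 8 libraries were most like those of Greb1, by Pearson r of log2 CPM, were Xist (0.98), Sde2 (0.96), Tshz2 (0.95), Rpl37 (0.95) and Arhgap42 (0.94). All 5 had higher levels in the 4 female than in the 4 male libraries, so the likeness describes the sex split that all these points share, and among them Xist alone was also near 0 in males. Sde2, a gene of DNA replication stress, had 61.0 to 81.8 CPM in females and 32.5 to 37.5 CPM in males. For Esr1 the most alike were Sash1 (0.96), Gm26890 (0.96) and Sspn (0.95), the last encoding sarcospan of the dystrophin complex. For Nr3c2 they were Gcfc2 (0.97), Ctss (0.96) and Tyrobp (0.94), of which Ctss and Tyrobp are genes of myeloid cells. Nr3c1 was most like Smim24, Ppip5k1 and Agpat5 (r 0.96, 0.96 and 0.95), and Fkbp5 most like Plaa, Gse1 and Cul1 (r 0.98, 0.97 and 0.97). Smim24, Ctss and Tyrobp had means of 1.60, 8.03 and 1.10 CPM, each with 0 in some libraries, so their r values rest on few counts. All r values here are the highest among 11730 genes over 8 points and are given as descriptions.

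The other genes of steroid action were taken as 8 lists, chosen with earlier results of these data known. Among the 8 other steroid and oestrogen-related receptors, 6 were tested and 0 were called between the sexes or between the fractions by the edgeR test, which called 1.65% and 1.2% of all genes. The 13 receptor chaperones, such as Hsp90aa1, Hsp90ab1 and the Fkbp5 relative Fkbp4, were all tested and 0 were called in either comparison, against the same shares of 1.65% and 1.2%. Their median log2 fold change of females against males was 0.25, where that of all genes was -0.02. Of the 16 steroid-converting enzymes, 8 were tested and 0 called in either, again against 1.65% and 1.2% of all genes. Cyp19a1, the aromatase that makes oestradiol, and Srd5a2, a reductase that makes dihydrotestosterone, had 0 counts in every library, while Hsd11b1, which regenerates active glucocorticoid, had 47.0 to 108 CPM.

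**Figure D4:**
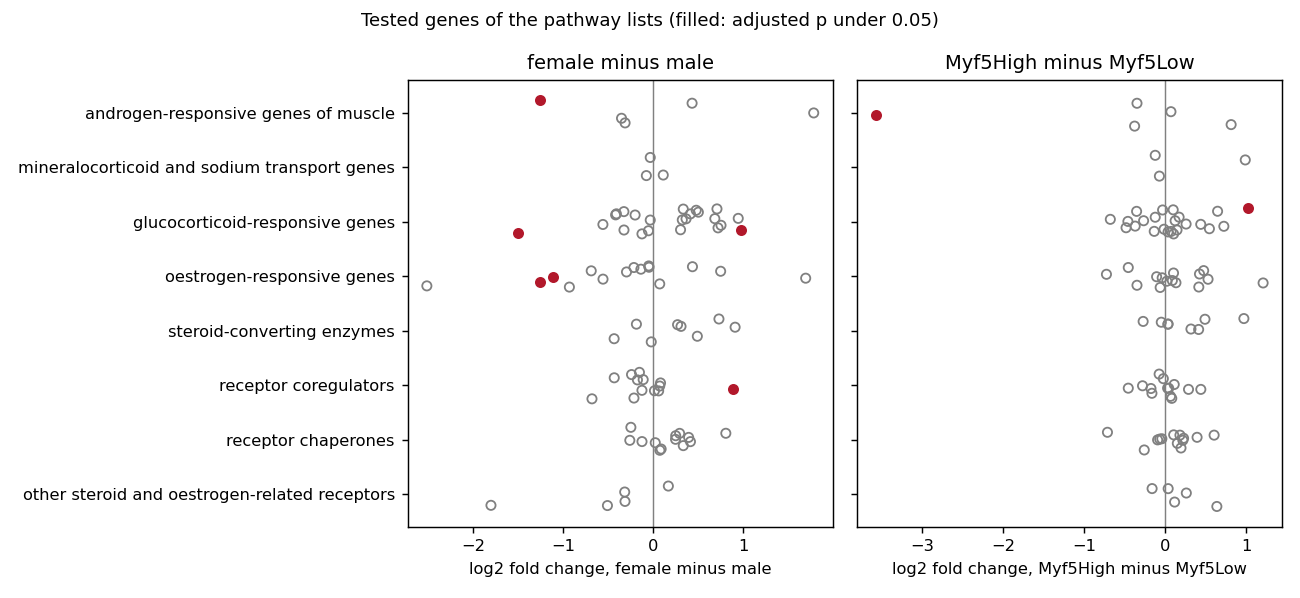
Log2 fold changes of females against males (left) and of Myf5High against Myf5Low (right) for tested genes of 8 pathway lists, one point per gene reported here, with vertical jitter without meaning. Filled points passed an edgeR adjusted p of 0.05, and most genes of every list did not pass.

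Of the 20 oestrogen-responsive genes, 15 were tested, 0 were called higher and 2 were called lower in females, against 0.733% and 0.921% of all genes tested, with a median log2 fold change of -0.22. Igf1, the growth factor gene that is also on the androgen list, had 89.3 to 160 CPM in females and 229 to 394 CPM in males, without overlap, a log2 fold change of -1.26 (standard error 0.215; adjusted edgeR p 0.00378). It passed in all 8 fits that left out 1 library, each of which counted fractions that may share mice as separate libraries. Ret, a receptor tyrosine kinase gene, had a log2 fold change of -1.12 (standard error 0.271; adjusted edgeR p 0.0437). Its call was lost when the counts of each sex and replicate number were summed (edgeR adjusted p 0.0766). It was also lost without any single female library or male Myf5Low replicate 1, at an edgeR adjusted p of 0.105 to 0.277. Igfbp4, Ccnd1 and Ctsd, the list's genes of highest mean level, were not called. Between the fractions 0 of the 15 were called, against 1.2% of all genes. The endothelial sums given for Esr1, of which Egfl7 was the largest part, lay above the female range in all 4 male libraries. Igf1 did so too, and the part of endothelial cells in its difference was not tested.

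Of the 25 glucocorticoid-responsive genes, 23 were tested, and 1 was called higher and 1 lower in females, against 0.733% and 0.921% of all genes tested. Dusp1, a phosphatase gene of the stress response, was higher in females, at a fitted log2 difference of 0.98 (standard error 0.189; adjusted edgeR p 0.0109). Its call was lost without female Myf5High replicate 1 (edgeR adjusted p 0.0595) or female Myf5Low replicate 2 (edgeR adjusted p 0.0678). Mertk, a receptor for the clearance of dead cells, was lower in females, at a fitted log2 difference of -1.51 (standard error 0.3; adjusted edgeR p 0.013). Its call was lost without replicate 2 of either female group (edgeR adjusted p 0.0502 for each). Of the 10 immediate early genes, 7 were above 0 and 3 below in females against males, with a median of 0.16, and Nr4a1 alone was called (edgeR log2 fold change 1.47, adjusted p 0.0115). The median of the list was 0.32 for females against males. Between the fractions, where 1.2% of all genes were called, Cebpd, a transcription factor gene, was the 1 of 23 called and was higher in Myf5High, with 405 ± 146 against 196 ± 48.4 CPM (SD over 4 libraries each). The log2 fold change was 1.02 (standard error 0.182; adjusted edgeR p 0.00598), and its edgeR adjusted p was 0.0587 without female Myf5High replicate 1. Mt2 and Nfkbia, the list's other genes of highest mean level, were not called in either comparison.

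The epithelial sodium channel genes Scnn1a and Scnn1g had 0 counts. Phb2, a prohibitin that represses oestrogen receptor activity, was the 1 of 13 tested coregulators that was called, higher in females (edgeR log2 fold change 0.89, adjusted p 0.0237), where 0.733% of all genes were called higher. It was lost without any of 5 libraries, namely female Myf5High replicates 1 and 2, female Myf5Low replicate 2 and both male Myf5Low replicates, at an edgeR adjusted p of 0.0577 to 0.112. Of 5 tested genes of the androgen list, 1 was called between the fractions, against 1.2% of all genes. Mylk4, a kinase gene of striated muscle, was lower in Myf5High, with 1.44 ± 0.735 against 19.4 ± 10.7 CPM (SD over 4 libraries each). The log2 fold change was -3.56 (standard error 0.499; adjusted edgeR p 0.000603), and it passed in all 8 fits that left out 1 library. Within females the fitted log2 difference of Mylk4 was -4.57 (adjusted edgeR p 0.00523), and within males it was -2.56, which did not pass (edgeR adjusted p 0.203), and the difference between the sexes was not called (interaction -2.01, edgeR adjusted p 1.0). The call in females was lost without female Myf5High replicate 2 (edgeR adjusted p 0.12) or female Myf5Low replicate 2 (edgeR adjusted p 0.0858).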

How the data were processed

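The authors deposited raw, whole-number counts for each Ensembl gene without normalisation, 1 column per library. HTSeq and GRCm38 are named in the submitters' processing notes. The aligner, annotation release and strand setting were not given in the sources used here. Tallies of reads outside genes (42.0% to 45.3% of reads in the table) and of ambiguous reads (0.248% to 0.296%) were left out.

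Groups came from the sample titles. Symbols, coordinates and exon lengths came from GENCODE mouse release M21 (GRCm38), which matched 27441 of 27554 identifiers. Genes were kept by filterByExpr (minimum count 10, minimum total 15), leaving 11730, of which 5 of the 6 members. Greb1 passed the filter through its female libraries. Counts were scaled by TMM and fitted with 1 mean per group to all 8 libraries in edgeR 4.0.16 (R 4.3.3, glmQLFit and glmQLFTest, two-sided), with Benjamini-Hochberg adjustment over all genes tested and a threshold of 0.05. Log2 CPM used a prior count of 2. DESeq2 1.42.0 was an alternative. On simulated counts for Myf5High against Myf5Low, edgeR recovered 182 of 200 genes changed by a log2 fold change of 2 among 11730, with 7 false calls. The simulation gave every gene the same dispersion, with no sex difference and no shared pools. How often smaller differences, such as that of Nr3c2 over both sexes, would be found was not measured.

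The members, gene lists and tests were chosen with earlier results of these data known. Named genes were the members, list genes called in a comparison or among the 3 of highest mean CPM of a list, and the genes most alike each member (5 for Greb1, 3 for others). A few others are named as chosen afterwards or as background. Intervals of count ratios are exact 95% intervals and cover counting error only. Whether libraries of 1 sex and replicate number share their mice is not stated outright in the labels. Tests of female against male counted such libraries as separate, except where their counts were summed. Across genes, the deviations of such libraries from their groups correlated at 0.0275 for females and 0.0004 for males. The 2 libraries of each group differed beyond counting noise (chi-square per degree of freedom 8.52 to 26.5). Results of 2 listed genes are not reported here.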

Additional observations from a re-analysis of the deposited data

Results flagged for a closer look

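Fkbp5 in the male libraries was singled out because the lowest of its 4 libraries, male Myf5High replicate 2, stood apart from the other 3. The gap to the nearest library was 0.923 of the whole range, above Dixon's 95% critical value for 4 values. Its level was 2.30 CPM against 13.0 to 13.9 CPM. It was the 1 such case among 17 sets of 4 libraries examined for the members, and chance gives about 1 in 20.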

How the results depend on the processing

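No member was called between the fractions in any setting tried (Greb1 within females alone), and the lowest adjusted p was 0.213, for Fkbp5 without male Myf5High replicate 1. The counts of called genes behind the background shares moved more. Without a filter on low counts they were 291 for Myf5High against Myf5Low, 167 in females, 111 in males, 14 for the interaction and 477 for female against male, where the fit reported had 141, 39, 20, 0 and 194. DESeq2 gave 234, 111, 80, 2 and 371. Leaving out each library in turn gave 82 to 243, 9 to 117, 8 to 74, 0 to 8 and 82 to 558, with the highest count for Myf5High against Myf5Low without male Myf5High replicate 2 and for female against male without male Myf5High replicate 1. With sex and replicate number as a replicate block the first 4 counts were 136, 33, 26 and 0 (425 at an unadjusted p under 0.05), and the female Greb1 log2 fold change was -0.33 (standard error 0.456; adjusted edgeR p 0.985). The block turned the Nr3c1 interaction from -0.02 to 0.015. Leaving Gm42418 out of the library size raised the mean level of Esr1 to 129 CPM in females and 213 CPM in males, of Nr3c1 to 158 and 174 CPM, and of Fkbp5 to 16.1 CPM in females. Signs of values near 0 turned when single libraries were left out. For Myf5High against Myf5Low the ranges were -0.28 to 0.052 for Esr1 and -0.13 to 0.20 for Nr3c1. In females they were -0.15 to 0.25 for Nr3c1, -1.12 to 0.32 for Greb1 and -0.63 to 0.17 for Fkbp5, and in males -0.64 to 0.026 for Esr1 and -0.31 to 0.36 for Nr3c1. For the interaction they were -0.32 to 0.35 for Nr3c1, -1.23 to 0.38 for Nr3c2 and -0.069 to 2.40 for Fkbp5. For female against male they were -0.28 to 0.055 for Nr3c1, -0.37 to 0.45 for Nr3c2 and -0.12 to 1.12 for Fkbp5. The female over male ratio of Greb1 counts ran from 80.0 to 295. The cause of these changes was not tested. Depth limits Nr3c2, Fkbp5 and male Greb1, where single libraries held at most 35, 65 and 5 counts.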
